A study of Mus musculus with 20 samples.

Results

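The 8 genes described here encode signals that pass between nerve fibers and other cells of brown fat, or proteins that remove catecholamines: the neurotrophin receptor Ngfr, the neurotrophins Bdnf and Ntf3, the growth factors Gdnf and Nrg1, the glial calcium-binding protein S100b, the catecholamine-degrading enzyme Maoa and the catecholamine transporter Slc22a3. They were taken by name from the 31053 gene rows of the tables, with earlier results of these data known, and all 8 were found. Their levels were taken in single-cell RNA-seq of the stromal vascular fraction (SVF, the non-adipocyte cells) of interscapular brown adipose tissue (iBAT) from mice, split with magnetic beads into lineage marker positive (Lin+, mostly immune) and lineage marker negative (Lin-) cells. The 20 libraries form 10 experiments, each 1 Lin+ and 1 Lin- library from 3 to 4 pooled mice aged 8 to 14 weeks. Male C57BL/6J mice were kept at room temperature (RT; housing at 24 °C), housed at 6 °C over 4 days (COLD), or given CL316,243, an agonist of the β3-adrenergic receptor, by a pump releasing 0.75 nmol per hour over the same time (CL), with 2 replicate experiments for each of these treatments. Female mice carrying the floxed Adrb1 alleles (Adrb1 fl/fl) and the tamoxifen-inducible Cre driven by the Pdgfra promoter (KO), or the same floxed alleles without this Cre (WT), all received tamoxifen, and each genotype gave 1 experiment at RT and 1 after 4 days of cold. In that line the RT libraries were made with kit version 3 and the COLD libraries with version 2, and the effects of kit and temperature cannot be told apart there. The pool of mice, not the cell, is the replicate, and in the Adrb1 line sex also differs from the C57BL/6J experiments.

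Brown fat is densely supplied by sympathetic nerves, whose terminals release noradrenaline onto adipocytes and vessels, and the axons run inside Schwann cells. Neurotrophins are secreted proteins that support the survival and growth of axons. NGFR (p75) binds all of them and is a classic marker of immature, repair and non-myelinating Schwann cells, while GDNF and neuregulin act on sympathetic and sensory neurons and on Schwann cells. Released noradrenaline is taken back up by neurons or imported by other cells through low-affinity transporters such as SLC22A3, and is then degraded by monoamine oxidase A, encoded by Maoa.

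On mm10 (GRCm38), the build of the deposited tables, all 8 are protein-coding genes. Ngfr lies at chr11:95568818-95587735 on the minus strand, Bdnf at chr2:109674700-109727007 on the plus strand and Ntf3 at chr6:126101412-126166910 on the minus strand. Gdnf occupies chr15:7810846-7837575 (plus), Nrg1 chr8:31814551-32884029 (minus) and S100b chr10:76253853-76261159 (plus). Maoa is at chrX:16619698-16687818 (plus) and Slc22a3 at chr17:12418960-12507704 (minus). Gene models on the opposite strand overlap Bdnf (Gm45346), Nrg1 (Gm26578), S100b (Dip2a) and Slc22a3 (Plg). Cell Ranger assigns reads by strand.

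After filters, 66339 Lin- and 59935 Lin+ cells remained, with a median of 1204 to 4358 unique molecular identifiers (UMIs, each a captured transcript) per cell across libraries. The Lin- library of RT replicate 2 kept only 28.0% of its barcodes. The Lin+ and Lin- libraries of CL replicate 2 shared 1098 cell barcodes, 17.1% of the smaller library, against at most 2.04% in any other pair of libraries. In the class sums without those barcodes, 1 call below is lost, and it is named there. Cells were clustered within each fraction with the 8 genes and all listed pathway genes left out, and classes were named from marker genes. They comprised 14054 ASC1-like, 12058 ASC2-like and 8105 ASC3-like adipose stromal cells (ASCs), 1840 pericyte-like, 2050 vascular smooth muscle cell (VSMC)-like, 1185 Schwann-like and 13338 macrophage-like cells over the 10 experiments. All 10 Schwann markers and all 7 pericyte markers were detected in their classes. Adrb1 counts followed the genotype in ASC1-like cells: 59.1 UMIs over both WT experiments and 3.97 over both KO experiments, or 4.22 against 0.43 CPM (UMIs scaled to a class total of 1e6). In ASC2-like and ASC3-like cells Adrb1 had at most 3 UMIs in each genotype, too few to check.

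The genes separated by cell class. Levels are CPM of UMIs summed over the cells of a class in both fractions of an experiment, and since the libraries count transcript 3′ ends they do not depend on transcript length. Schwann-like cells held the highest median S100b level, 885 CPM (range 385 to 1437 over 10 experiments), and their range did not overlap that of the next class, ASC3-like cells, at 42.1 CPM (21.2 to 58.9). Over all treatments Ngfr was also highest by median in Schwann-like cells (122 CPM, 59.4 to 557). A small Lin- cluster led by Sfrp5 and Spp1 (78.1 CPM) and pericyte-like cells (54.4 CPM, 29.2 to 237) followed, with overlapping ranges. This order depended on treatment. In the RT replicates pericyte-like cells (170 and 237 CPM) were above Schwann-like cells (79.5 and 61.1 CPM). At RT the order of these classes differed between the single WT and KO experiments. These held 4.0 and 7.0 Ngfr UMIs in pericyte-like and 14.0 and 9.0 in Schwann-like cells, and so few UMIs do not set the order. After cold Schwann-like cells were higher in every experiment (388 to 557 against 29.2 to 35.9 CPM). Ngfr was far lower in ASC1-like cells, at 11 CPM (0.54 to 22.9). Their range overlapped those of the lower classes. Bdnf had its highest median in pericyte-like cells (73.9 CPM, 15.7 to 150), followed by VSMC-like cells (12.3 CPM, 0 to 22). A class of epithelial-like cells came next (10.8 CPM), and its range (0 to 47.9) overlapped both. No Bdnf UMI was counted in 13338 macrophage-like cells, which allows a level of up to 0.044 CPM (3 UMIs of the total, the limit used here for every count of 0).

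Ntf3 was the most widely spread of the neurotrophins over vessel-wall and stromal classes: its medians were 159 CPM in VSMC-like cells (76.2 to 247), 120 CPM in ASC1-like cells (40.2 to 276), 115 CPM in pericyte-like cells (76.7 to 216) and 59.3 CPM in ASC3-like cells (47.7 to 110). Vascular endothelial cell (VEC)-like cells were at 36.3 CPM and ASC2-like cells at 13.2 CPM. Neighbors in this order overlapped in range, so the order among VSMC-like, ASC1-like and pericyte-like cells is not set by these data. Slc22a3 had its highest median in VSMC-like cells, with 45.3 CPM (21.5 to 65.3). Epithelial-like cells came next, with a median of 3.67 CPM and a range (0 to 58.8) that overlapped that of VSMC-like cells. Schwann-like and monocyte-like cells had 0 UMIs and pericyte-like cells 3.0 UMIs in all. The 0 UMIs in Schwann-like cells allow up to 1.16 CPM. Maoa was found in most vascular, glial and stromal classes, with medians of 38.3 CPM in Schwann-like (17.6 to 64.9), 37.5 in VEC-like, 35.8 in VSMC-like, 18.6 in ASC1-like and 12.4 CPM in macrophage-like cells (3.93 to 32.7). It was lower in monocyte-like cells, at 1.48 CPM (0.59 to 3.23).

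Gdnf and Nrg1 were close to the limit of detection. Gdnf gave 38.9 UMIs in Schwann-like cells, a pooled level of 15.07 CPM (95% exact Poisson interval 10.8 to 20.7, counting error only), and 38.0 UMIs in VSMC-like cells, 7.19 CPM (5.09 to 9.87). Pericyte-like, VEC-like and macrophage-like cells had none. Nrg1 was found in monocyte-like cells, with 197 UMIs and 10.8 CPM (9.29 to 12.3), and in macrophage-like cells, with 125 UMIs and 1.86 CPM (1.54 to 2.21). By median over experiments, dendritic-like (1.13 CPM, 0 to 4.67) and proliferating cells (1.08 CPM, 0 to 4.80) were close to macrophage-like cells (1.07 CPM, 0.36 to 4.88). Neither Schwann-like nor VSMC-like cells had an Nrg1 UMI. Within monocyte-like cells, 184 of the Nrg1 UMIs fell in the cluster led by Chil3 and Lyz2 and 12.98 in the cluster led by Ace and Ear2, at 14.4 and 2.33 CPM.

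**Figure D1:**
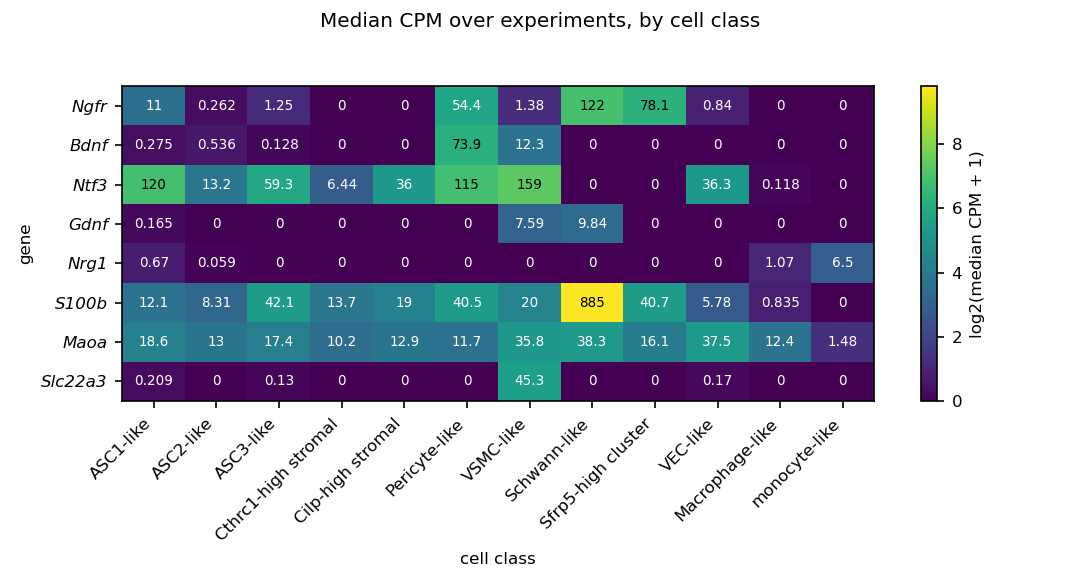
Each cell gives the median CPM over experiments of a gene (rows) in a cell class (columns), colored by log2(median CPM + 1). S100b and Ngfr are highest in Schwann-like cells (885 and 122 CPM), Bdnf in pericyte-like cells (73.9 CPM), Slc22a3 in VSMC-like cells (45.3 CPM), and Ntf3 spans VSMC-like, ASC1-like and pericyte-like cells. The medians pool all treatments. In the RT replicates Ngfr is higher in pericyte-like (170 and 237 CPM) than in Schwann-like cells (79.5 and 61.1 CPM).

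To ask how cold changed these genes, the COLD and RT sums of each class were compared in the C57BL/6J experiments. Of 23 member and class pairs with enough counts to test, 6 passed an adjusted p of 0.05 in edgeR's quasi-likelihood test, 3 upward and 3 downward. Ngfr rose in Schwann-like and ASC1-like cells and fell in mural-like cells (pericyte-like and VSMC-like cells summed). S100b rose and Ntf3 fell in ASC1-like cells, and Maoa fell in macrophage-like cells. Among all genes tested, the share called in the same comparison was 12.5% in ASC1-like, 0.503% in ASC2-like, 0.0961% in ASC3-like, 0.301% in mural-like, 1% in Schwann-like and 36.7% in macrophage-like cells. So 3 of 5 tested members were called in ASC1-like cells, 1 of 6 in mural-like, 1 of 3 in Schwann-like and 1 of 3 in macrophage-like cells, and none of 3 in either ASC2-like or ASC3-like cells. Over all 10 experiments, with line and genotype as terms, 6 of 22 pairs were called after cold, beside shares of all genes of 28.6%, 7.07%, 3.18%, 1.53%, 13.8% and 52.3% in the same order of classes. These 10 experiments include the C57BL/6J ones, so the comparisons share samples. Each test with 2 replicates a group measures the spread between pools of mice.

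**Figure D2:**
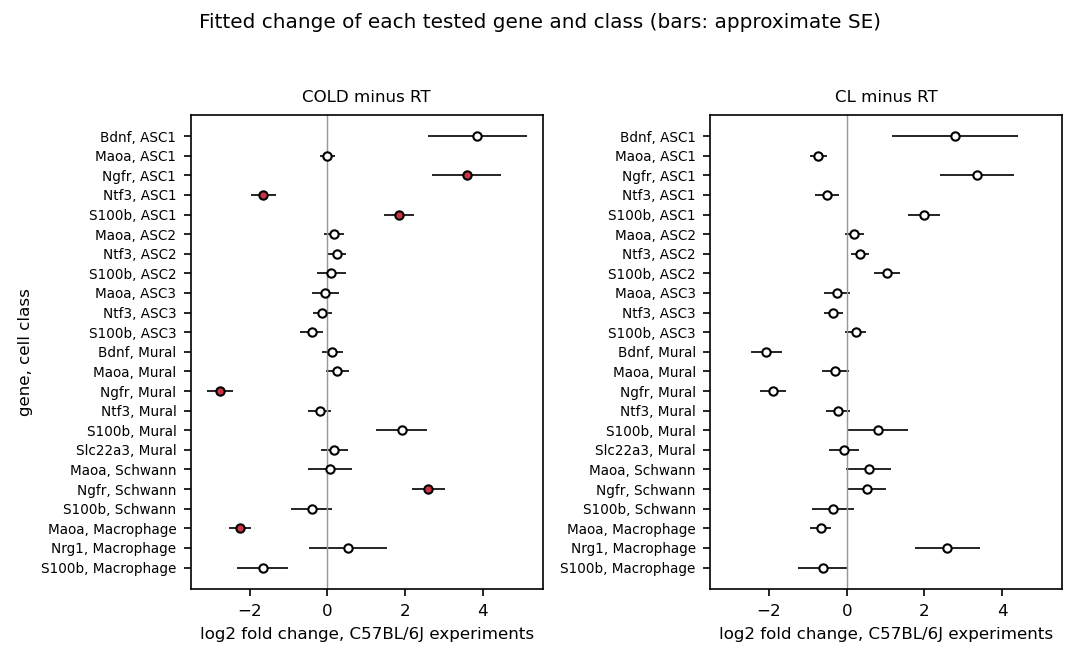
Log2 fold changes of each tested gene and class in the C57BL/6J experiments (horizontal axis), for COLD minus RT on the left and CL minus RT on the right; bars are approximate standard errors and filled points passed an adjusted p of 0.05. The 6 filled points are all in the cold panel.

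Ngfr, the pan-neurotrophin receptor, moved in opposite directions in Schwann-like and pericyte-like cells. In Schwann-like cells it was at 79.5 and 61.1 CPM in the RT replicates, 388 and 514 CPM in the COLD replicates, and 164 and 80.4 CPM in the CL replicates. The Adrb1 line gave 72.9 (WT) and 59.4 CPM (KO) at RT against 454 and 557 CPM after cold. Every cold experiment was thus above every RT experiment, with no overlap in either line. The log2 change was 2.60 (SE 0.42, n = 2 and 2, adjusted p = 0.0111) in C57BL/6J mice and 2.69 (SE 0.30, adjusted p = 6.9e-05) over all experiments. The sums rest on 7.88 to 17.96 Ngfr UMIs per RT experiment and 94.5 to 223 per cold experiment, from 74 to 136 and 114 to 170 cells.

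Most of the Schwann-like Ngfr came from the cluster of 790 cells led by Kcna1 and Gfra3, genes of non-myelinating glia, where the RT range was 65.3 to 89.0 CPM and the cold range 434 to 618 CPM. Fitted alone, this cluster gave 2.54 (SE 0.47, adjusted p = 0.0451; 0.437% of genes called) in C57BL/6J mice and 2.63 (adjusted p = 0.00052; 9.59% called) over all experiments. In the cluster led by myelin genes (300 cells), Ngfr was at 0 in 6 of the 7 experiments with enough cells. At a clustering resolution of 2 the C57BL/6J change was the same size, 2.60, with an adjusted p of 0.0655. Measured beside this change, the summed level of the 10 Schwann markers was 17090 to 35320 CPM at RT and 11760 to 15580 CPM after cold, and hemoglobin genes reached 3048 and 7216 CPM in 2 of the 4 cold sums. The 8 general macrophage markers went from 7457 to 16740 CPM at RT to 4001 to 5846 CPM after cold, the 6 perineurial markers from 176 to 395 to 127 to 165 CPM, and the 7 markers of differentiating adipocytes from 13.1 to 49.1 to 67.7 to 269 CPM. The part of these genes in the Ngfr change was not tested.

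In pericyte-like cells Ngfr was at 170 and 237 CPM at RT, 30.8 and 35.9 CPM after cold and 99.5 and 56.2 CPM under CL. The Adrb1 line had 52.5 and 71.3 CPM at RT, from 4.0 and 7.0 UMIs, and 30.6 and 29.2 CPM after cold. Cold levels lay below all RT levels, while the RT levels of the lines differed from each other. The mural-like sum, in which the share of pericyte-like cells varied, held 91.1 and 122 CPM of Ngfr at RT and 13.5 and 15.3 CPM after cold in C57BL/6J mice. In the Adrb1 line it held 6.39 (WT) and 18.8 CPM (KO) at RT and 10.7 and 12.97 CPM after cold, so that it was higher after cold in WT and the RT and cold groups overlapped over all experiments. The mural-like sum gave a log2 change of -2.76 (SE 0.34, adjusted p = 0.00935) in C57BL/6J mice and -2.04 (SE 0.44, adjusted p = 0.0352) over all experiments. Without COLD replicate 1 or COLD replicate 2 the C57BL/6J adjusted p was 0.0818 or 0.0509, with changes of -2.65 and -2.87. Over all experiments the adjusted p was 0.0915, 0.1004, 0.1196 and 0.204 without RT replicate 1, RT replicate 2, COLD replicate 1 and COLD replicate 2, and 0.0570 without the top 6% of doublet scores. VSMC-like cells carried only 9.91 Ngfr UMIs, and pericyte-like cells fitted apart, an analysis added after the data had been seen, gave -2.48 (SE 0.31, adjusted p = 0.00166; 1.14% of genes called) and -2.12 (adjusted p = 0.00062; 3.9% called). The same pericyte-like sums held 630 to 1103 CPM of the 7 VSMC markers at RT and 2412 to 7877 CPM after cold, while the 7 pericyte markers stayed between 16650 and 26400 CPM in all 8 of these experiments. The 7 ASC3 markers went from 5797 to 10360 CPM at RT to 2119 to 3379 CPM after cold in the same sums, and hemoglobin genes stood at 5350 CPM in RT replicate 1 and 41150 CPM in KO after cold. The part of these genes in the Ngfr fall was not tested.

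Ngfr in ASC1-like cells was low and uneven. It was at 0.54 and 0.94 CPM at RT, 10.3 and 5.59 CPM after cold and 13.5 and 1.98 CPM under CL in C57BL/6J mice, from 3.98 and 1.97 UMIs at RT. The log2 change with cold was 3.58 (SE 0.88, adjusted p = 0.0297), but the adjusted p was 0.181, 0.123 and 0.121 without RT replicate 1, RT replicate 2 and COLD replicate 1. The Cxcl9 and Timp1 cluster, which held 253 of 1451 and 328 of 1308 ASC1-like cells in the RT and 2599 of 2833 and 2208 of 2385 in the COLD replicates, gave 2.09 when fitted alone (SE 1.09, adjusted p = 0.324). In the Adrb1 line the RT level was already 11.7 (WT) and 22.9 CPM (KO), against 15.3 and 14.4 CPM after cold, so the groups overlapped, and over all experiments the change was 1.13 (SE 0.65, adjusted p = 0.209). The 10 Schwann markers summed to 33.6 to 54.1 CPM in ASC1-like cells of every experiment, and ASC2-like cells of the same libraries held at most 0.95 CPM of Ngfr. In Schwann-like cells Ngfr rose with cold while the Schwann markers fell. The part of Schwann transcripts in the ASC1-like Ngfr was not tested.

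**Figure D3:**
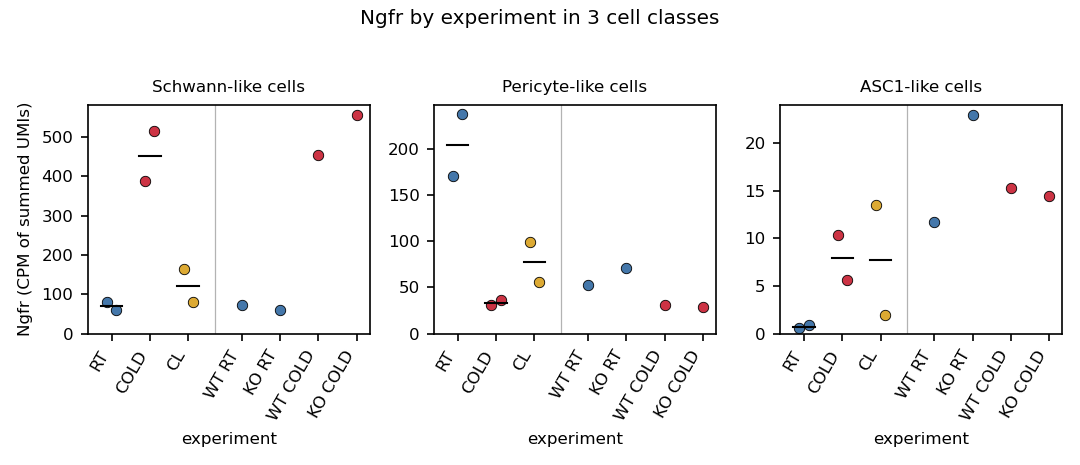
Ngfr level (CPM of summed UMIs, vertical axis from 0) in each experiment for Schwann-like, pericyte-like and ASC1-like cells; points are experiments and bars the mean of 2 C57BL/6J replicates. Cold points lie above all RT points in Schwann-like cells (388 to 557 against 59.4 to 79.5 CPM) and below them in pericyte-like cells.

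Bdnf, a neurotrophin that acts through the TrkB receptor, did not change with cold in mural-like cells by this test (log2 change 0.13, SE 0.28, adjusted p = 0.952). In pericyte-like cells it was at 76.9 and 119 CPM at RT, 105 and 150 CPM after cold, and 15.7 and 16.1 CPM under CL. Both CL levels lay below all 4 others, from 2.99 and 4.0 UMIs against 33.8 to 74.0. For mural-like cells the CL change was -2.07 (SE 0.39, adjusted p = 0.0831), and for pericyte-like cells fitted apart -2.44 (SE 0.44, adjusted p = 0.0393; 0.352% of genes called under CL). In the same pericyte-like sums the 7 VSMC markers were at 630 and 886 CPM at RT and 3089 and 2658 CPM under CL, and the 7 markers of differentiating adipocytes at 42.6 and 78.1 against 1315 and 187 CPM. Their part in the Bdnf change was not tested. In the Adrb1 line pericyte-like Bdnf was higher in KO at both temperatures, 71.0 against 26.3 CPM at RT and 135 against 30.4 CPM after cold, from 6.97 against 2.0 and 22.9 against 6.85 UMIs. This genotype difference was not called (mural-like log2 change 1.80, SE 0.45, unadjusted p = 0.0013, adjusted p = 0.923).

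In ASC1-like cells Bdnf was rare, with 158 UMIs, of which 107 came from the WT COLD experiment. That experiment stood at 8.84 CPM, against 2.54 and 1.10 CPM in the COLD replicates, 0.38 CPM in KO COLD and 0 to 0.135 CPM in the 4 RT experiments. With RT near 0, the fitted size depends on the prior count. The change over all experiments was 4.79 (SE 1.00, adjusted p = 0.00622), and without the WT COLD experiment it was 3.87 with an adjusted p of 0.0565. In C57BL/6J mice alone it was 3.86 (SE 1.27, adjusted p = 0.0775), and 4.18 with the replicate block (adjusted p = 0.0232; 17.4% of genes called). Of the Bdnf UMIs, 155 were in the cluster led by Cxcl9 and Timp1, which grew with cold in C57BL/6J mice, and 1.91 in the Smoc2 cluster. Within the Cxcl9 cluster the RT levels (0 to 0.89 CPM) and cold levels (0.47 to 10.6 CPM) overlapped, and the part of the cluster make-up in the change was not tested.

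Ntf3, which encodes neurotrophin-3, fell with cold in ASC1-like cells. It was at 153 and 276 CPM at RT, 54.1 and 64.0 CPM after cold and 88.7 and 151 CPM under CL. The Adrb1 line had 157 (WT) and 153 CPM (KO) at RT and 40.2 and 46.0 CPM after cold. All cold levels lay below all RT levels and below both CL levels. The log2 change was -1.65 (SE 0.32, adjusted p = 0.0114) in C57BL/6J mice and -1.70 (SE 0.22, adjusted p = 0.00051) over all experiments. Leaving out COLD replicate 1, COLD replicate 2 or RT replicate 2 moved the C57BL/6J adjusted p to 0.119, 0.0613 or 0.0576, with changes of -1.50, -1.83 and -1.57.

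ASC1-like cells comprised a cluster led by Cxcl9 and Timp1, which held 2599 and 2208 cells in the COLD replicates against 253 and 328 at RT, and a cluster led by Smoc2, with 223 and 164 cells after cold against 1182 and 963 at RT. In the Cxcl9 cluster Ntf3 was at 105 and 229 CPM at RT and 47.8 and 60.1 CPM after cold in C57BL/6J mice, and at 134 and 144 against 21.02 and 27.7 CPM in the Adrb1 line. In the Smoc2 cluster it was at 161 and 296 CPM at RT against 150 and 138 CPM after cold, and at 187 and 175 against 132 and 133 CPM in the Adrb1 line. Both clusters thus had lower levels in every cold experiment, by a smaller margin in the Smoc2 cluster. Fitted alone, in an analysis added after the data had been seen, the Cxcl9 cluster gave -1.42 (SE 0.32, adjusted p = 0.0512; 3.14% of genes called) and, over all experiments, -1.92 (SE 0.28, adjusted p = 0.00115; 24.7% called). The Smoc2 cluster gave -0.52 (adjusted p = 0.572; 1.33% called) and -0.49 (adjusted p = 0.147; 5.81% called). Along with Ntf3, the 8 ASC1 markers summed to 13400 to 20120 CPM at RT and 8558 to 10060 CPM after cold in the whole class. In the same sums the 7 proliferation markers went from 3.83 to 17.1 CPM at RT to 95.5 to 187 CPM after cold, the 7 monocyte markers from 79.7 to 129 to 301 to 866 CPM, and the 8 general macrophage markers from 4562 to 7497 to 1612 to 3419 CPM. The part of these genes in the changes of Ntf3, S100b, Ngfr and Bdnf was not tested.

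The fall of Ntf3 was larger in ASC1-like cells than in the other ASC subtypes. Ntf3 in ASC2-like cells was at 9.60 and 18.1 CPM at RT and 16.8 and 13.3 CPM after cold, and in ASC3-like cells at 70.1 and 110 against 99.9 and 57.6 CPM, with overlapping groups. The cold response differed by -1.89 (SE 0.32, adjusted p = 0.0017) between ASC1-like and ASC2-like cells and by -1.50 (SE 0.29, adjusted p = 0.00914) between ASC1-like and ASC3-like cells, where 8.31% and 6.07% of all genes were called. Without COLD replicate 1 the second of these was -0.99 with an adjusted p of 0.0911. In pericyte-like cells Ntf3 was at 183 and 216 CPM at RT and 107 and 89.9 CPM after cold (log2 change -0.96, SE 0.38, adjusted p = 0.376), and in VSMC-like cells at 150 and 247 against 202 and 202 CPM (0.07, SE 0.30, adjusted p = 0.991), where 0.0692% of genes were called after cold, 0.0115% under CL and 0.874% over all experiments.

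S100b, which Schwann cells and other glia express strongly, was high in Schwann-like cells under every treatment: 824 and 1437 CPM at RT, 696 and 1000 CPM after cold and 635 and 1056 CPM under CL. Its log2 change there was -0.40 with cold (SE 0.53, adjusted p = 0.817), and its RT and cold levels overlapped. In ASC1-like cells S100b was at 3.94 and 4.20 CPM at RT, 9.72 and 18.3 CPM after cold and 17.4 and 12.9 CPM under CL. The RT replicates were below all 4 others. The change was 1.85 (SE 0.39, adjusted p = 0.0162) with cold and 1.98 (SE 0.41, adjusted p = 0.0515) under CL. The Adrb1 line had 12.7 and 8.43 CPM at RT against 11.6 and 13.8 CPM after cold, which overlap, and over all experiments the change was 1.12 (SE 0.36, adjusted p = 0.038).

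Within the ASC1-like clusters the S100b change was not called. In the Cxcl9 cluster it was at 8.64 and 8.01 CPM at RT and 9.61 and 18.7 CPM after cold (log2 change 0.75, SE 0.54, adjusted p = 0.491). In the Smoc2 cluster it was at 3.14 and 3.19 against 12.8 and 11.1 CPM (1.89, SE 0.65, adjusted p = 0.234). In the Adrb1 line the Smoc2 cluster had 8.66 (WT) and 7.83 CPM (KO) at RT and 12.41 and 15.03 CPM after cold. Every cold experiment was thus above every RT experiment in the Smoc2 cluster. The Cxcl9 cluster of that line had 14.01 and 9.28 against 11.45 and 13.53 CPM, which overlap. Over all experiments the Smoc2 cluster gave 1.30 (SE 0.46, adjusted p = 0.110). The Cxcl9 cluster gave 0.42 (SE 0.35, adjusted p = 0.383). The class-level call also fell to an adjusted p of 0.0768, 0.0953 and 0.0959 without RT replicate 1, RT replicate 2 and COLD replicate 2, and the call over all experiments to 0.129, 0.115 and 0.0828 without the same replicates and to 0.0701 and 0.0692 without KO at RT and KO after cold. Against the other subtypes, the cold response of S100b was larger in ASC1-like cells by 1.73 than in ASC2-like (SE 0.44, adjusted p = 0.0239) and by 2.21 than in ASC3-like cells (SE 0.31, adjusted p = 0.00098). The first of these was not called without RT replicate 1 (adjusted p = 0.0782), RT replicate 2 (0.152) or COLD replicate 2 (0.250), nor at clustering resolution 2 (0.0652). The CL response was larger by 1.70 than in ASC3-like cells (SE 0.31, adjusted p = 0.0373; 0.347% of genes called), and without the barcodes shared by the CL replicate 2 libraries by 1.45 (adjusted p = 0.126). It was also not called without RT replicate 2 (adjusted p = 0.212), CL replicate 1 (0.0541) or CL replicate 2 (0.107), nor at clustering resolution 2 (0.0670). Between ASC1-like and ASC2-like cells 1.44% of genes differed in the CL response, and S100b was not among them (0.97, SE 0.42, adjusted p = 0.383).

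In pericyte-like cells S100b was at 11.6 and 26.96 CPM at RT, 42.5 and 233 CPM after cold, and 40.5 and 23.6 CPM under CL. WT and KO had 13.1 and 40.6 CPM at RT and 124 and 126 CPM after cold. Cold levels were above all RT levels, with COLD replicate 2 far above COLD replicate 1. Fitted apart, pericyte-like cells gave a log2 change of 3.09 (SE 0.63, adjusted p = 0.0351) and over all experiments 2.83 (SE 0.50, adjusted p = 0.00339), whereas the mural-like sum gave 1.91 (SE 0.65, adjusted p = 0.327). The VSMC, ASC3 and hemoglobin genes given beside Ngfr moved in these same sums, and their part in the S100b change was not tested. VSMC-like S100b was at 2.90 and 43.9 CPM at RT and 15.5 and 18.3 CPM after cold.

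**Figure D4:**
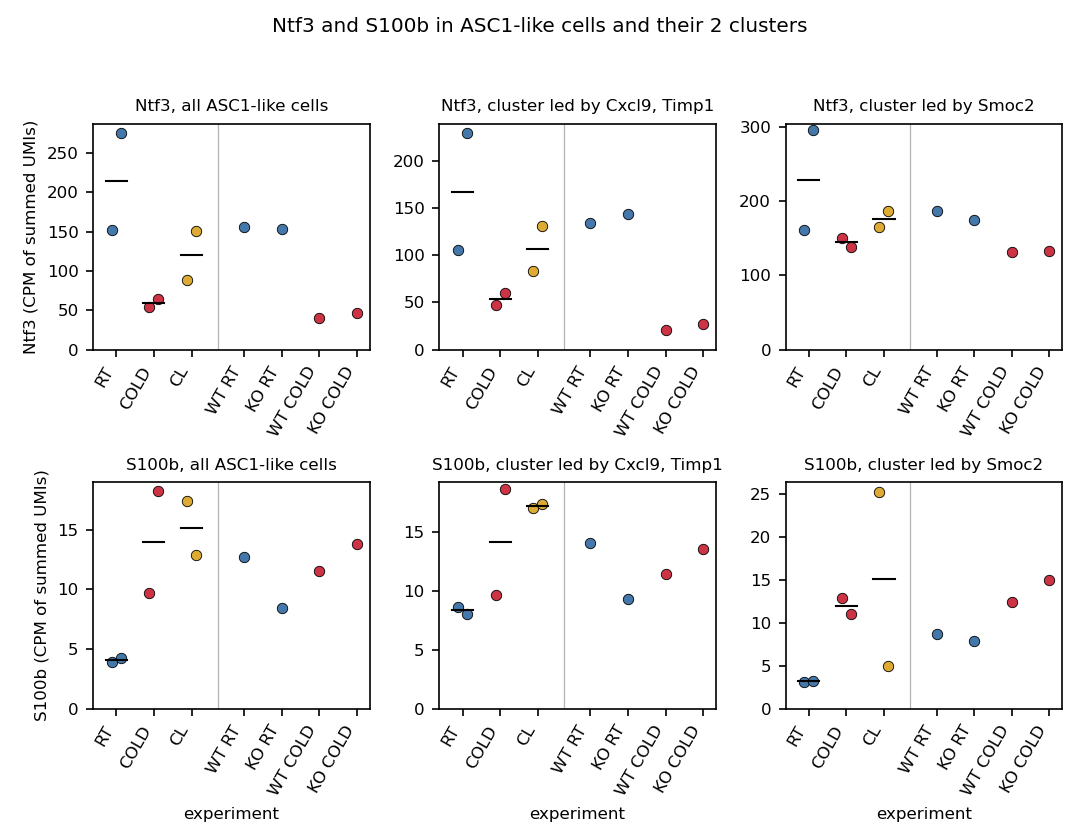
Ntf3 (top) and S100b (bottom) levels in CPM by experiment for all ASC1-like cells and for their 2 clusters; points are experiments, bars the mean of 2 C57BL/6J replicates, and each vertical axis starts at 0. Ntf3 is lower in all cold experiments in each panel, with the wider gap in the cluster led by Cxcl9 and Timp1 (21.02 to 60.1 against 105 to 229 CPM).

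Gdnf, the founding ligand of the RET receptor family, passed the count filter in none of the 6 tested classes. In Schwann-like cells it had 0 and 2.0 UMIs in the RT replicates, 4.0 and 4.99 UMIs in the COLD replicates, 0 and 1.0 under CL, 1.0 and 0 in WT and KO at RT, and 14.0 and 11.9 in WT and KO after cold. These counts correspond to 0 to 15.5 CPM at RT and 14.5 to 31.4 CPM after cold, and the groups overlap. In VSMC-like cells it lay between 0 and 12.96 CPM, with no separation of the treatments.

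Nrg1, a ligand of ErbB receptors that axons present to Schwann cells, passed the count filter of the C57BL/6J and 10-experiment fits in macrophage-like cells only. It was at 0.42 and 0.36 CPM at RT, 0.45 and 0.67 CPM after cold and 3.14 and 1.43 CPM under CL, from 1.0, 1.0, 7.99, 7.99, 34.5 and 7.0 UMIs. WT and KO had 2.59 and 0.71 CPM at RT and 4.88 and 3.20 CPM after cold. Both CL replicates were above all other C57BL/6J experiments, with a log2 change of 2.59 (SE 0.83, adjusted p = 0.0843), and the cold change was 0.53 (SE 1.00, adjusted p = 0.709). Of the 125 UMIs, 74.7 were in the macrophage-like clusters led by Chil3, Ccl7 and Fcgr1. These clusters held 12 and 17 cells at RT, 1107 and 550 after cold and 305 and 46 under CL. Their Nrg1 level was 0.79 and 1.87 CPM in the COLD replicates and 16.3 and 15.5 CPM in the CL replicates, the last from 46 cells. WT and KO after cold had 10.5 and 5.94 CPM in these clusters. At RT there were too few cells to give a level. The part of the cluster make-up in the Nrg1 change was not tested.

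Maoa, whose product oxidizes noradrenaline inside cells, fell with cold in the macrophage-like class. It was at 24.8 and 15.3 CPM at RT, 3.93 and 4.10 CPM after cold and 14.8 and 9.98 CPM under CL. WT and KO had 27.6 and 32.7 CPM at RT and 4.54 and 5.89 CPM after cold. All 4 cold experiments lay below all 6 others. The log2 change was -2.25 (SE 0.28, adjusted p = 0.00053) in C57BL/6J mice and -2.15 (SE 0.21, adjusted p = 6.1e-05) over all experiments, in a class where 36.7% and 52.3% of all genes were called. Under CL the change was -0.67 (SE 0.27, adjusted p = 0.147).

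The make-up of the macrophage-like class moved with cold, and within its clusters the Maoa change was not called. The cluster led by Ccl8 and Pf4 held 705 of 766 and 694 of 739 macrophage-like cells in the RT replicates and 271 of 3079 and 90 of 1914 in the COLD replicates, while the clusters led by Gpnmb and Mmp12 went from 49 and 28 cells to 1699 and 1272. In the Ccl8 cluster Maoa was at 27.5 and 16.1 CPM at RT and 12.7 and 25.3 CPM after cold, which overlap (log2 change -0.47, SE 0.41, adjusted p = 0.512; 7.46% of genes called). WT and KO had 29.8 and 42.8 CPM at RT and 9.65 and 24.5 CPM after cold in this cluster, which do not overlap (change over all experiments -0.68, SE 0.31, adjusted p = 0.115; 27.7% called). The Gpnmb clusters had 4.59 and 10.8 CPM at RT against 4.22 and 3.76 CPM after cold in C57BL/6J mice, and 20.8 (WT) and 12.7 CPM (KO) at RT against 4.87 and 3.096 CPM after cold in the Adrb1 line. Within each line the cold levels were thus below the RT levels in these clusters. The RT levels rest on 49 and 28 cells in C57BL/6J mice and on 61 (WT) and 69 (KO) in the Adrb1 line. In C57BL/6J mice so few cells do not set an order of 4.59 against 4.22 CPM. The change was -0.88 in C57BL/6J mice (SE 1.02, adjusted p = 0.689; 2.26% called) and -1.42 over all experiments (SE 0.53, adjusted p = 0.0601; 28.9% called). The clusters led by Chil3, Ccl7 and Fcgr1, with 12 and 17 cells at RT and 1107 and 550 after cold, had 0.98 and 1.12 CPM after cold. The part of the cluster make-up in the class-level fall was not tested.

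**Figure D5:**
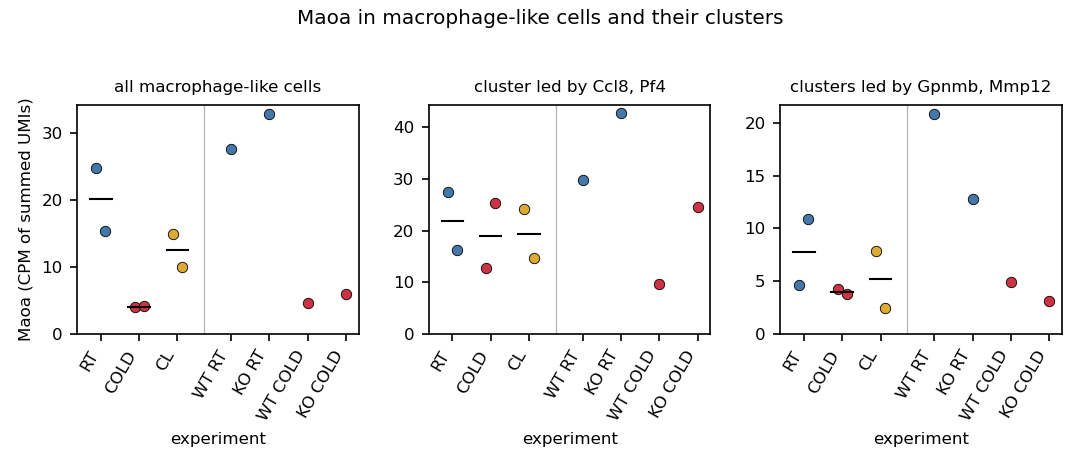
Maoa level (CPM of summed UMIs, vertical axis from 0) by experiment in all macrophage-like cells, in the cluster led by Ccl8 and Pf4, and in the clusters led by Gpnmb and Mmp12; points are experiments and bars the mean of 2 C57BL/6J replicates. In the whole class cold (3.93 to 5.89 CPM) and RT (15.3 to 32.7 CPM) do not overlap. In the Ccl8 cluster they overlap in C57BL/6J mice, while in the Adrb1 line cold (9.65 and 24.5 CPM) lies below RT (29.8 and 42.8 CPM). In the Gpnmb clusters, with 28 to 69 cells per RT experiment, they overlap only when the lines are pooled.

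Outside macrophages no cold change of Maoa was called. Its cold changes were -0.01 in ASC1-like (SE 0.19), 0.16 in ASC2-like (SE 0.26), -0.05 in ASC3-like (SE 0.35), 0.26 in mural-like (SE 0.30) and 0.07 in Schwann-like cells (SE 0.57), all with adjusted p above 0.05. Slc22a3, the extraneuronal monoamine transporter, was tested in mural-like cells. In VSMC-like cells it was at 45.7 and 65.3 CPM at RT, 45.9 and 45.3 CPM after cold, 21.5 and 35.4 CPM under CL, 45.3 and 54.9 CPM in WT and KO at RT and 31.5 and 34.6 CPM after cold in that line. Both CL replicates were below the other C57BL/6J experiments, but for VSMC-like cells fitted apart the CL change was -0.70 (SE 0.34, adjusted p = 0.734) and the cold change -0.25 (SE 0.30, adjusted p = 0.938).

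CL infusion, which acts on the β3-adrenergic receptor of adipocytes, was compared with RT to ask what this stimulus does without cold. None of 23 member and class pairs passed in edgeR's test, and DESeq2 called 2, Ngfr and S100b in ASC1-like cells, beside 2.74% of all genes there. With the replicate number as a block 4 pairs were called: Ngfr (3.53, adjusted p = 0.0382) and S100b (1.88, adjusted p = 0.0485) in ASC1-like cells, both upward, and Ngfr (-1.89, adjusted p = 0.0121) and Bdnf (-2.12, adjusted p = 0.0204) in mural-like cells, both downward. That fit called 2.74% of all genes in ASC1-like and 1.03% in mural-like cells. Without the filter on low counts 5 were called. Of all genes, edgeR without the block called 1.62% in ASC1-like, 0.0274% in ASC2-like, 0.0288% in ASC3-like, 0% in mural-like, 0.0186% in Schwann-like and 7.51% in macrophage-like cells, so few genes of any kind passed outside ASC1-like and macrophage-like cells. In Schwann-like cells Ngfr was 0.52 higher under CL (SE 0.48, adjusted p = 0.927), in mural-like cells 1.89 lower (log2 change -1.89, SE 0.34, adjusted p = 0.0752). Bdnf in mural-like, Ngfr and S100b in ASC1-like and Nrg1 in macrophage-like cells were the others with the lowest p-values.

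KO and WT mice of the Adrb1 line were compared to ask whether these genes depend on Adrb1 in Pdgfra-expressing cells. In edgeR's test none of 22 pairs passed, 2 had an unadjusted p under 0.05 (Bdnf in ASC1-like and in mural-like cells), and DESeq2 called none. In every class 0% of all genes were called by edgeR, with 70 to 354 genes at an unadjusted p under 0.05, and DESeq2 called 0 or 1. Adrb1 itself, with 59.1 UMIs in WT and 3.97 in KO in ASC1-like cells, was thus not among genes called by edgeR. The Bdnf difference in ASC1-like cells (-4.35, SE 1.05, unadjusted p = 0.0015, adjusted p = 1) rested on the WT COLD experiment named above. For Ngfr in Schwann-like cells the KO minus WT difference was 0.13 (SE 0.40), for Ntf3 in ASC1-like cells 0.06 (SE 0.31) and for Maoa in macrophage-like cells 0.33 (SE 0.31). None of these was called, and each genotype had 1 experiment per temperature.

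The 8 genes were set beside 6 lists of related genes: neurotrophins and receptors (10 genes), GDNF family and receptors (10), neuregulins and ErbB receptors (8), catecholamine synthesis, storage and clearance (17), secreted axon guidance cues (12) and other neurotrophic factors (7), which with the members make 65 genes. In ASC1-like cells 34 of the 65 were tested after cold in C57BL/6J mice, of which 4 rose and 6 fell, where 12.5% of all genes were called. Those that fell included, besides Ntf3, the neurotrophin co-receptor gene Sorcs2 (log2 change -3.49, SE 0.44), the GDNF receptor genes Ret (-1.19, SE 0.18) and Gfra1 (-2.60, SE 0.37) and Ntn4 (-2.18, SE 0.51). Besides Ngfr and S100b, the adhesion gene Ncam1 (2.41, SE 0.57) and the axon guidance gene Slit2 (2.55, SE 0.31) rose. Over all experiments, where 28.6% of all genes were called, Bdnf, Gfra4 (0.99), Akr1b3 (0.68) and Manf (1.51) were also called upward, and Maob (-0.63), Sort1 (-0.62), Sema3c (-1.16) and the neurotrophin-3 receptor gene Ntrk3 (-2.08) downward, while Ngfr and Ncam1 were not called. Under CL, Ret fell (-1.15, SE 0.19) and Ptn rose (6.02, SE 1.21) in ASC1-like cells. None of the 65 was called between KO and WT in any class.

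ASC2-like and ASC3-like cells had no call among 31 and 29 of these genes in C57BL/6J mice (edgeR), where 0.503% and 0.0961% of all genes were called. Over all experiments, where the shares were 7.07% and 3.18%, Sema3d (-1.11), Ntrk3 (-1.21) and Sema3b (-0.58) fell in ASC2-like and Sema3d (-1.64) in ASC3-like cells. In mural-like cells the secreted factor Ptn fell together with Ngfr (-3.32, SE 0.42), and over all experiments Ncam1 (-1.22) fell as well. Pericyte-like cells fitted apart gave falls of Ptn (-3.44) and Ncam1 (-2.90) with cold and a rise of Sema3c under CL (2.72). Schwann-like cells had Ngfr as the only call of 20 genes in C57BL/6J mice, beside 1% of all genes. Over all experiments, beside 13.8% of all genes, they also had Manf (1.30) upward and Sort1 (-0.88), Ptn (-1.32), Ntn4 (-1.40) and Ncam1 (-1.04) downward.

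In macrophage-like cells 16 of the 65 were tested after cold, of which 4 rose and 5 fell, in a class where 36.7% of all genes were called and the cluster make-up moved with cold. The neuregulin gene Nrg4 rose (6.63, SE 2.01), as did Sort1 (1.17), the aldehyde dehydrogenase gene Aldh2 (0.58) and Manf (0.66). Over all experiments, where 52.3% of all genes were called, Sort1 (0.23, adjusted p = 0.630) and Aldh2 (0.28, adjusted p = 0.268) were not called, while Nrg4 (6.90) and Manf (1.87) were. Those that fell included, besides Maoa, Gfra2 (-3.67), Egfr (-2.68) and Nrg2 (-2.59), which were also called over all experiments. CL gave rises of Sort1 (1.22), Aldh2 (0.72) and Akr1b3 (0.71). Between ASC1-like and ASC2-like cells the cold response also differed for Ntn4 (-2.12), Mdk (-1.04), Maob (-0.69) and Sema3b (1.02) and the CL response for Ret (-2.59) and Ntn1 (0.91). Between ASC1-like and ASC3-like cells it differed after cold for Sorcs2 (-3.93), Ntn4 (-2.73), Ncam1 (3.67) and Sema3b (1.49).

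The genes whose class profile most resembled each member were found from Pearson's correlation of class mean log2(CPM + 1) over 21 classes, as a description over classes that share libraries, among 11602 genes. For Ngfr these were Ntng1 (0.84), Srcin1 (0.81) and Lrrc4c (0.81). Bdnf was most like Trpc6 (0.98), Ano1 (0.94) and Ajuba (0.94), all highest in pericyte-like cells. Ntf3 resembled Tmem136 (0.95), Gnao1 (0.94) and Zfp618 (0.91). S100b was nearest to Ispd (0.95), Fam178b (0.93) and Shisa4 (0.93), highest in Schwann-like cells. Maoa was nearest to Dst (0.94), Ctnnd1 (0.93) and Gkap1 (0.93), and Slc22a3 to Cck (0.98), Ldb3 (0.98) and the smooth muscle gene Cnn1 (0.95), highest in VSMC-like cells. Gdnf and Nrg1 stayed under 20 CPM in every class and were not compared.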

How the data were processed

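Per the labels and the study's methods, the authors aligned 10x Genomics reads with Cell Ranger 3.0.1 to mm10 and corrected the UMI counts for ambient RNA with SoupX, so the deposited matrices hold expected counts (non-integer values per gene and cell, not normalized). Cells with over 10% mitochondrial UMIs or over 15000 UMIs, Lin- cells with under 100 genes and Lin+ cells with over 4000 genes were left out. Each fraction was clustered in scanpy 1.11.5 (2000 variable genes, 30 components, Leiden resolution 1, Harmony-type correction over 6 cohorts of experiments), 6 mixed clusters were split again after the data had been seen, and 14768 of 126274 cells stayed unnamed. The cohorts were the C57BL/6J experiments of the same replicate number and each Adrb1 experiment alone, so RT and cold were separate cohorts only in the Adrb1 line. Doublets were kept, and an alternative without the top 6% of Scrublet scores was run. Counts were summed per experiment and class (at least 20 cells), rounded, and tested with edgeR 4.0.16 (quasi-likelihood, TMM factors, filterByExpr, two-sided, Benjamini-Hochberg over all genes tested, threshold 0.05), with 3 residual degrees of freedom in C57BL/6J mice and 5 over 10 experiments. The interaction fits had the experiment as a block. SEs are the log2 change divided by the square root of F and are approximate. The study's methods merge C57BL/6J libraries of the same number as one replicate experiment, so a fit with this number as a block is given where it changes a call. Same-numbered deviations from the group means correlated between -0.07 and 0.40, not above 0.1 in every pair. DESeq2 1.42.0 was an alternative. The scripts were tested on simulated counts. A gene of a list is named where it was called, apart from results not reported here, and for each member with at least 20 CPM in a class the 3 most alike genes are named. The members and lists were chosen with earlier results of these data known. The fits without shared barcodes, of pericyte-like and VSMC-like cells apart, of single clusters and without each Adrb1 experiment were chosen after seeing the data. The range over libraries of the median UMIs per cell is given above, and intervals cover counting error only. Positions come from GENCODE vM21.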

Additional observations from a re-analysis of the deposited data

Results flagged for a closer look

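Of the 4 genes tested for a difference in response between ASC subtypes in C57BL/6J mice, Ntf3 and S100b differed by edgeR's test of the difference itself. The cold response of Ntf3 was lower in ASC1-like than in ASC2-like cells by a log2 difference of -1.89 and than in ASC3-like cells by -1.50, where 8.31% and 6.07% of all genes differed. The cold response of S100b was higher in ASC1-like cells by 1.73 than in ASC2-like and by 2.21 than in ASC3-like cells, and its response to CL was higher by 1.70 than in ASC3-like cells, where 0.347% of all genes differed. The cell make-up of the ASC1-like class moved with the same treatments. In C57BL/6J mice the cluster led by Cxcl9 and Timp1 had 253 of 1451 and 328 of 1308 cells at RT, 2599 of 2833 and 2208 of 2385 after cold, and 1031 of 1173 and 827 of 1410 under CL. In the Adrb1 line it had 276 of 510 (WT) and 196 of 358 (KO) at RT and 1193 of 1667 and 718 of 959 after cold. The correction before clustering took each Adrb1 experiment as its own cohort, while C57BL/6J treatments of the same replicate number shared a cohort. The shares are therefore not comparable between the lines. The part of the cell make-up in these differences was not tested.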

How the results depend on the processing

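The number of member and class pairs called after cold in C57BL/6J mice (6) ranged from 3 to 7 when single replicates were left out, at 3 without COLD replicate 1, COLD replicate 2 or RT replicate 2. Over all experiments (6) it ranged from 4 to 7. For CL (0) it ranged from 0 to 2 without single replicates, and was 5 without a filter on low counts, 1 without the top doublet scores, 2 with DESeq2, 4 with the replicate number as a block and 1 with pericyte-like and VSMC-like cells fitted apart. For KO against WT (0) it was 2 without the filter and 0 to 0 over the replicates left out. The differences between ASC subtypes (5) ranged from 3 to 5 and were 3 at clustering resolution 2. With the replicate block 7 pairs were called after cold, and it lost no call. No called value changed sign, while some differences near 0 that were not called did when an Adrb1 experiment was left out. The levels of the 8 genes in their leading class moved by less than their spread without doublets, in the main fraction alone or as a mean over cells. Ngfr in Schwann-like cells over all experiments, the Ntf3 difference between ASC1-like and ASC2-like cells and the S100b difference between ASC1-like and ASC3-like cells after cold were called in every alternative run, and Maoa in macrophage-like cells in every one except the fits of single clusters. Depth limits Gdnf, Nrg1, and Bdnf and Ngfr in ASC1-like cells, which rest on few UMIs in some experiments, such as 3.98 and 1.97 for Ngfr in the RT replicates.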

Other observations

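Ntf3 was also lower after cold in a stromal cluster outside the tested classes, the one led by Cilp: 36.6 and 81.2 CPM in the RT replicates, 7.98 and 35.3 CPM in the COLD replicates, 17.6 and 42.8 CPM under CL, 47.3 and 50.8 CPM in WT and KO at RT, and 20.8 and 7.21 CPM in WT and KO after cold. All cold levels lay below all RT levels. In the stromal cluster led by Cthrc1, Nrg1 had 25.5 UMIs (3.61 CPM), with 7.08 CPM in CL replicate 1, 1.79 CPM in WT COLD and 0 in the other 5 experiments with enough cells. In the Lin- cluster led by Sfrp5 and Spp1, in which all 6 perineurial markers were raised but whose 10 leading genes held 1 of them and 2 ASC1 markers, Ngfr was at 42.7 and 96.8 CPM in the RT replicates and 96.9 and 59.3 CPM in the COLD replicates, with 171 CPM in WT at RT against 46.6 and 148 CPM in WT and KO after cold, so the groups overlapped there. Maoa in VEC-like cells stayed between 26.7 and 52.4 CPM in all 10 experiments, and S100b in VEC-like cells was highest in CL replicate 1, at 27.5 CPM against 0 to 12.3 CPM in the others.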
